A study of Mus musculus with 12 samples.

Results

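The genes described here are 10 mouse genes of iron uptake, export and storage, of the sensing of iron inside the cell and of heme breakdown: Tfrc, Slc11a2, Slc40a1, Fth1, Ftl1, Aco1, Ireb2, Fbxl5, Hmox1 and Hmox2. They were taken by symbol from the deposited table, where each of the 10 has 1 row among 15767 genes. Their levels came from RNA sequencing of Neuro-2a cells, a mouse neuroblastoma line that serves as a neuron-like model. The 12 libraries fall into 4 from cells given a miR-155 mimic, meant to supply this microRNA, 4 from cells given an inhibitor of miR-155, designed to silence it, and 4 from cells given a control small RNA.

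All 12 libraries share the WT genotype of the line, transfection with RNA Fit in medium lacking serum and antibiotics, a change to complete medium after 4 h and culture to day 2, so even the control cells were transfected. The level of mature miR-155 was not analysed here. Titles number the libraries of each group from 1 to 4, and the labels do not state what a number stands for. The 3 libraries numbered 4 (mimic 4, inhibitor 4 and control 4) are compared below with the 9 numbered 1 to 3, and if a number marks a shared day of culture, those 3 libraries are 1 day. Separate cultures are not stated for the libraries of 1 group. The p-values therefore speak of the spread among these libraries, part or all of which may be technical. Total counts ran from 60695388 to 74200532 per library.

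Cells take up iron by binding transferrin to the transferrin receptor (Tfrc), and the metal leaves the endosome through the divalent metal transporter (Slc11a2). Surplus iron is stored in ferritin, a shell of heavy (Fth1) and light (Ftl1) chains, or leaves the cell through ferroportin (Slc40a1). When iron is scarce, the iron regulatory proteins IRP1 (Aco1) and IRP2 (Ireb2) bind hairpins called iron-responsive elements: in a 5' UTR this blocks translation, and in the 3' UTR of the transferrin receptor mRNA it slows decay. Fbxl5 is the iron-sensing subunit of the ubiquitin ligase that removes IRP2 when iron is plentiful. Heme oxygenases open the heme ring and free its iron, Hmox1 as the inducible form and Hmox2 as the constitutive one.

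The hairpins are shown first because, in the members that carry them, they lie in the 3' UTR of some mRNAs and the 5' UTR of others. The search took a C, any 5 bases, the loop CAGTG followed by A, C or T, and 5 bases able to pair with the first 5 (G-T pairs allowed), on the transcript strand of GENCODE M21 (build GRCm38). In the sequences the capitals mark the bulged C and the loop, and positions count from the first base of the named transcript. Over 21901 coding genes, 0.105% had such a core with all 5 pairs in a 5' UTR, among them 3 members, and 0.457% had one in a 3' UTR, among them 1 member. Tfrc (chromosome 16) carried 4 in the 3' UTR of Tfrc-201, at bases 3321, 3700, 3765 and 3812:
Tfrc 3321: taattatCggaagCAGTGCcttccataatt
Tfrc 3700: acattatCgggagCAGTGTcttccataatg
Tfrc 3765: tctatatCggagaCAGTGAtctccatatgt
Tfrc 3812: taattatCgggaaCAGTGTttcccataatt

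Both ferritin chains and ferroportin carried a single core in the 5' UTR, at base 93 of Fth1-201 (chromosome 19), base 84 of Ftl1-201 (chromosome 7) and base 96 of Slc40a1-201 (chromosome 1):
Fth1: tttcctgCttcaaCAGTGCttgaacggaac
Ftl1: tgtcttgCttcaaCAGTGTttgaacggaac
Slc40a1: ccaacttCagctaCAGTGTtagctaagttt

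Slc11a2 (chromosome 15) had a core with 4 of the 5 pairs, at base 1803 in the 3' UTR of Slc11a2-205, and it is shown because this mRNA is known to have an isoform with such an element:
Slc11a2: gagccatCagagcCAGTGTgtttctatggt

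The mature miR-155-5p of the mouse (chromosome 16, from RefSeq on GRCm38.p6) is given with its seed, bases 2 to 8, in capitals. Its 7-base complement AGCATTA was found in the 3' UTR of 8.51% of the 21901 genes and of 1 member, Slc11a2, at base 2177 of Slc11a2-205, where the capitals mark it:
mmu-miR-155-5p: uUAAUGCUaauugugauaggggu
Slc11a2 match: tcttaccctgtAGCATTAggcagcaccttg

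These matches describe the letters of the transcripts. The counts join all isoforms of a gene, so the isoform with the Slc11a2 element or seed match was not measured on its own.

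**Figure D1:**
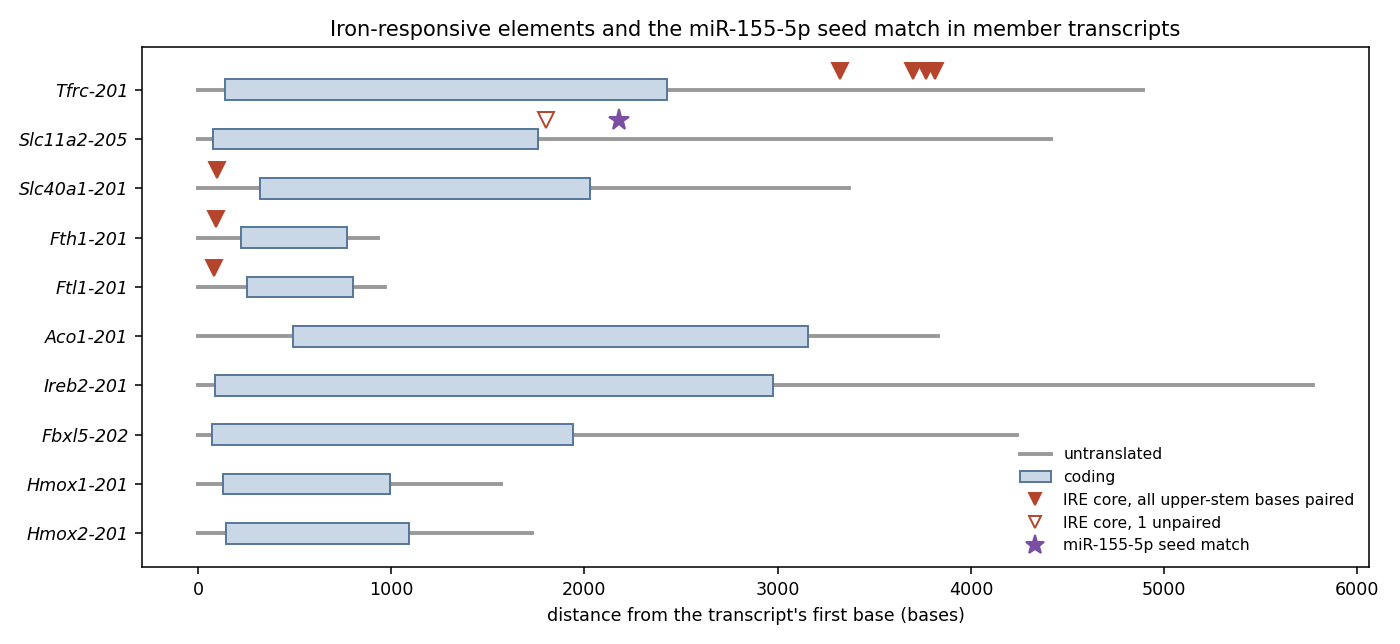
Transcripts of the 10 genes drawn to scale, with the distance from the first base in bases on the x axis. Bars are coding sequence and lines are untranslated. Tfrc-201 has 4 element cores with all 5 pairs in its 3' UTR, and Fth1, Ftl1 and Slc40a1 have 1 near the 5' end. Slc11a2-205 has a core with 4 of 5 pairs and the seed match. In the untranslated regions drawn for the other 5 genes the search found no core with all 5 pairs. Cores with 4 pairs were listed for Slc11a2 alone.

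Per transcript length, ferritin mRNAs stood far above the other members. In TPM (length-scaled transcript shares, which divide the count by gene length and so allow genes to be compared) Ftl1 averaged 1896 ± 126 and Fth1 919 ± 26.4 (SD, n = 12 for this and the next values). Hmox1 followed with 303 ± 48.9 TPM, then Aco1 with 116 ± 10.4. Hmox2 had 66.4 ± 2.36, Tfrc 54.8 ± 18.3, Ireb2 53.0 ± 11.97 and Slc11a2 43.4 ± 1.77 TPM. Fbxl5 had 11.9 ± 1.10 TPM and the exporter Slc40a1 0.447 ± 0.120 TPM. The ranges of neighbours in this order overlapped for Hmox2 and Tfrc, for Tfrc and Ireb2 and for Ireb2 and Slc11a2, and for no other neighbours. Aco1 was above Ireb2 in every library, by 1.74 to 2.25 times in the libraries numbered 4 and 1.63 to 3.75 times in those numbered 1 to 3.

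The Ftl1 level is uncertain. Of the 919 stretches of 50 bases in Ftl1-201, 73.4% also occur letter for letter in a transcript of 1 other gene of the tables, listed there as Ftl1-ps2. That gene itself was listed at 3152 to 3937 TPM, above Ftl1. How reads that fit both were divided is not given in the sources used here. For the other 9 members 0% of such stretches occur in another gene of the tables. Hmox2 overlaps Cdip1 on the other strand, which had 73.3 to 95.2 CPM (counts scaled to the library size), and whether the counting used the strand is not given, so reads of the overlap cannot be told apart.

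**Figure D2:**
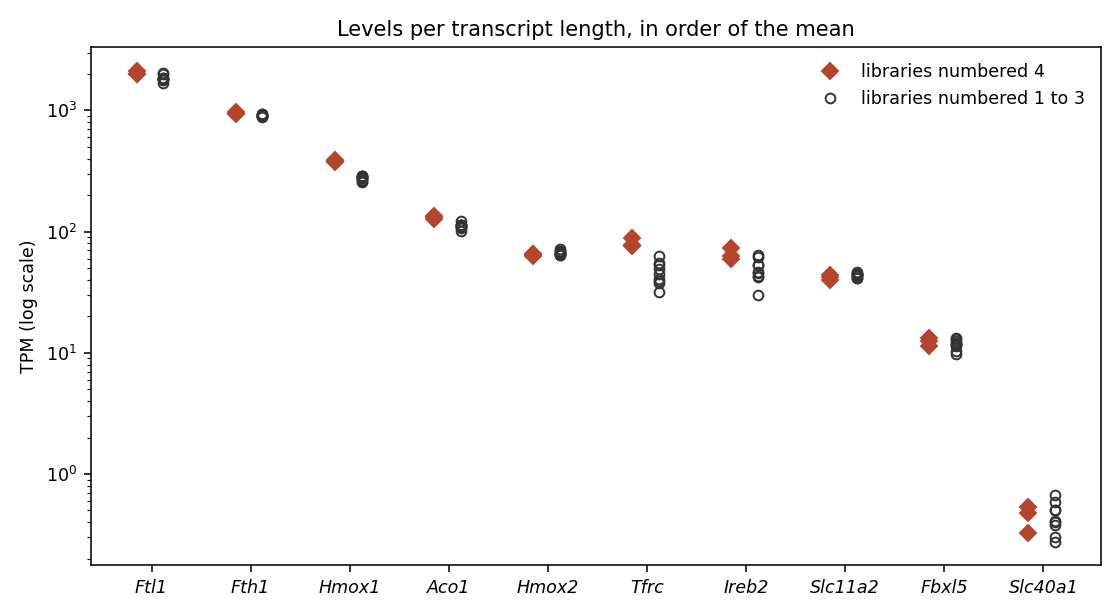
TPM of each member in the 12 libraries on a log axis, in order of the mean over libraries. Diamonds are the 3 libraries numbered 4 and circles the 9 numbered 1 to 3. Ftl1 and Fth1 stand highest and Slc40a1 lowest, and the libraries numbered 4 stand above all others for Tfrc, Aco1 and Hmox1.

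Whether the iron genes respond to added or blocked miR-155 was read from 3 comparisons: mimic and inhibitor, each against control, and mimic against inhibitor. No member passed the test in any of them. The counts were fitted over all 13014 genes that passed the filter on low counts, the 10 members among them, with edgeR's quasi-likelihood test on TMM-scaled libraries, and genes with a Benjamini-Hochberg adjusted p under 0.05 count as called. Each comparison called 0% of the 13014 genes, and the 30 member results had an adjusted p of 1 and an unadjusted p above 0.05. All 30 of the 95% intervals included 0. Over all genes 71, 67 and 77 had an unadjusted p under 0.05 in these comparisons in the order given. Each of these counts is below the share of 0.05 that chance gives when no gene differs. The test was thus strict, and 0 calls do not show that no gene responded. DESeq2 called 3, 1 and 6 genes, with 0 members among them.

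Apart from the thinly measured Slc40a1, the log2 fold changes of the 9 other members ran from -0.11 to 0.08 in the 27 results. Precision differed between members. For Fth1 the interval was narrow: it had 0.02 on the log2 scale in mimic against control (95% interval -0.11 to 0.14) and -0.0001 in inhibitor against control (-0.13 to 0.13). Hmox2 was as tightly bounded, with 0.02 in mimic against control (-0.11 to 0.15). The other ferritin chain, Ftl1, had a wider interval in mimic against control, -0.22 to 0.19 around -0.02. For Tfrc the interval of mimic against control ran from -0.61 to 0.75 around 0.07, and for Ireb2 from -0.43 to 0.51 around 0.04. This fit leaves the difference of the libraries numbered 4, described below, in its spread. With number 4 as a further term, added after seeing the data, the SE of Tfrc was 0.17 in place of 0.31 and that of Hmox1 0.065 in place of 0.17. The intervals of mimic against control were then -0.25 to 0.48 for Tfrc, -0.30 to 0.44 for Ireb2 and -0.15 to 0.13 for Hmox1. With that term all 30 intervals still included 0, and 0 genes were called, while 223, 180 and 160 genes had an unadjusted p under 0.05 in mimic against control, in inhibitor against control and in mimic against inhibitor. These counts too are below a share of 0.05 of the genes tested.

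Slc11a2, the endosomal iron transporter and the member with the seed match, had 68.0, 74.4, 73.8 and 70.0 CPM in mimic libraries 1 to 4, against 82.1, 75.0, 75.0 and 76.6 CPM in inhibitor libraries 1 to 4. In control libraries 1 to 4 it had 74.3, 80.8, 71.9 and 71.8 CPM. All 4 mimic libraries were below all 4 inhibitor libraries, and both overlapped the control libraries. The log2 fold change was -0.11 in mimic against inhibitor (95% interval -0.25 to 0.03) and -0.06 in mimic against control (-0.20 to 0.08). Over the 1199 tested genes with the same 7-base match the median was 0.019 in mimic against inhibitor and 0.004 in mimic against control.

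Slc40a1, the only known cellular iron exporter, had 34 to 78 counts per library. Its levels were 0.747, 0.753, 0.578 and 0.645 CPM in mimic libraries 1 to 4, against 0.761, 1.27, 1.14 and 0.924 CPM in inhibitor libraries 1 to 4. Control libraries 1 to 4 had 0.516, 1.04, 0.973 and 1.02 CPM. All mimic libraries were below all inhibitor libraries, though mimic 2 and inhibitor 1 nearly met, while control 1 was the lowest of the 12. The log2 fold change was -0.59 in mimic against inhibitor (95% interval -1.18 to 0.01), -0.38 in mimic against control (-0.98 to 0.21) and 0.20 in inhibitor against control (-0.39 to 0.79). These values moved with the setting. In inhibitor against control the value was 0.02 without control 1, 0.08 without inhibitor 2 and 0.32 either without inhibitor 1 or in numbers 1 to 3 alone. Limma on log2(TPM + 1), which shrinks low values, gave -0.17 in mimic against inhibitor, -0.10 in mimic against control and 0.07 in inhibitor against control, and with a pseudocount of 0.1 mimic against control was -0.25.

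Slc40a1 and Slc11a2 were the 2 members whose groups did not overlap in mimic against inhibitor, where 0.861% of all 13014 genes did not overlap. No member separated mimic from control, where 0.684% of genes did, or inhibitor from control, where 0.645% did. In the 9 libraries numbered 1 to 3 alone, the members other than Slc40a1 ran from -0.08 to 0.21 in mimic against control, from -0.06 to 0.19 in inhibitor against control and from -0.10 to 0.14 in mimic against inhibitor, with 0 members called. Tfrc had the highest of these values in the comparisons with control, 0.21 for mimic and 0.19 for inhibitor. The libraries numbered 4 alone hold 1 library per group, so no test was possible within them.

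The libraries numbered 4 differed from the others in 4 of the 10 iron genes, all higher: Tfrc, Hmox1, Aco1 and Ireb2. In the same fit, with the treatment group as a second term, 44.1% of the 13014 genes were called, 21.4% higher and 22.7% lower in number 4, so 4 of 10 is a share near the background. The median log2 fold change of the 10 members was 0.13, against -0.0042 over all genes. Of the called members, 3 (Tfrc, Aco1 and Hmox1) had each number 4 library above each of the 9 others, as 17.9% of all genes did, while 19.0% of all genes lay wholly lower and 0 members did.

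**Figure D3:**
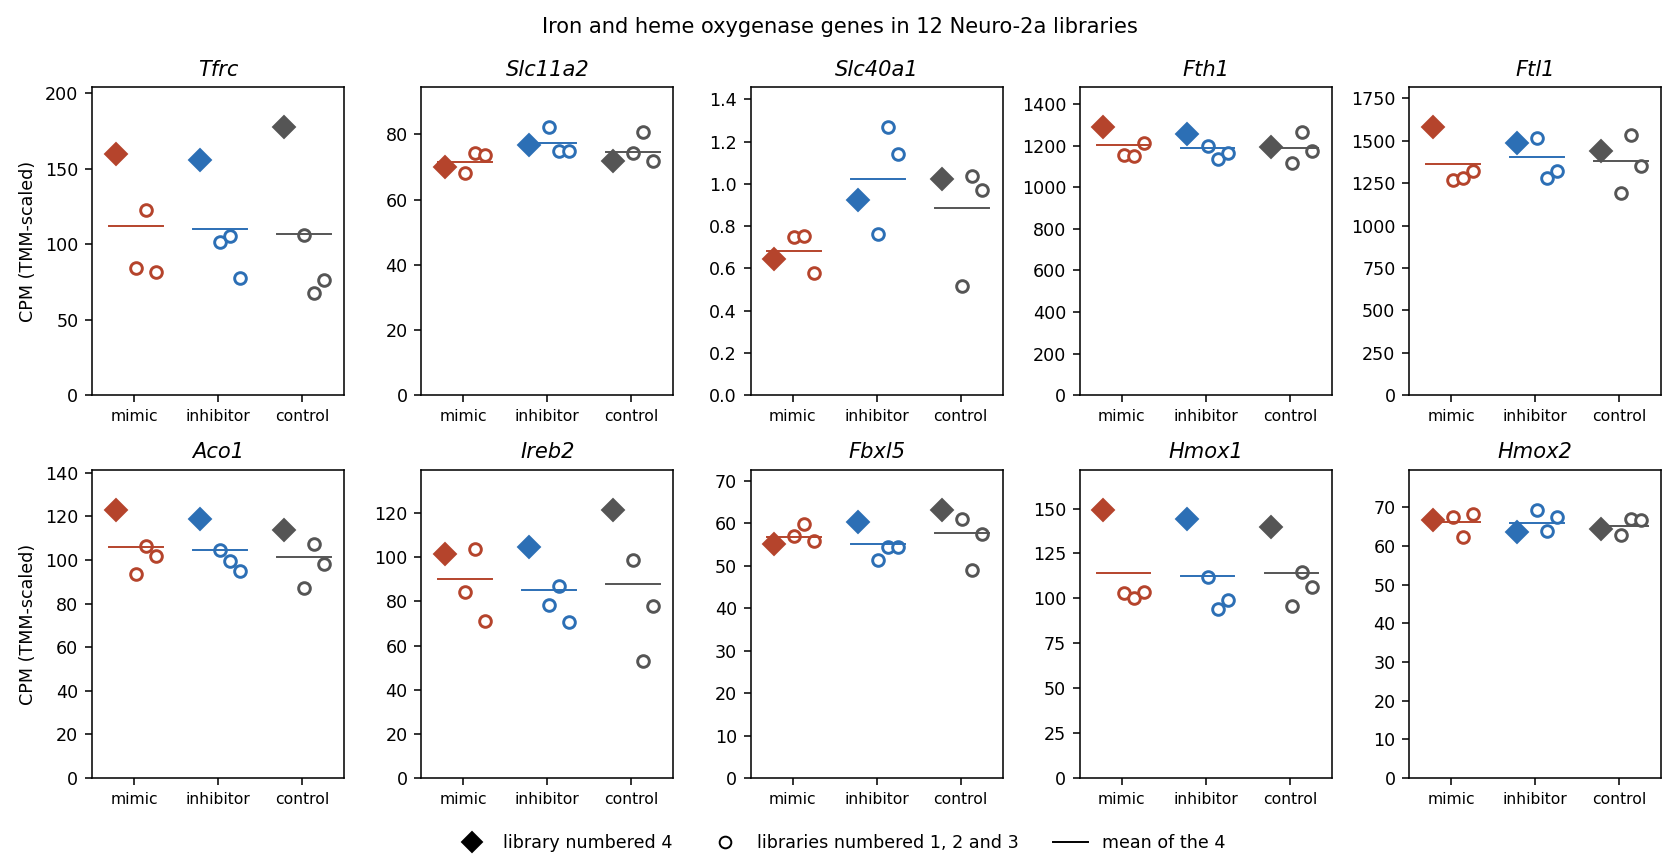
CPM of each member in every library, by treatment, with separate y axes that start at 0. Filled diamonds are the libraries numbered 4, open circles those numbered 1 to 3, and lines the mean of the 4 libraries of a group. Tfrc, Aco1 and Hmox1 have the diamond on top in all 3 groups, while the group means of these genes lie close together.

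The transferrin receptor mRNA, Tfrc, differed most. It had 160, 156 and 177 CPM in mimic 4, inhibitor 4 and control 4. Among the libraries numbered 1 to 3 it had 84.5, 123 and 81.6 CPM in mimic, 102, 105 and 77.7 CPM in inhibitor and 106, 67.8 and 76.0 CPM in control. Every number 4 library stood above every other, and the highest of the 9 others was mimic 2. The ratio of number 4 to the mean of numbers 1 to 3 was 1.66 in mimic, 1.64 in inhibitor and 2.13 in control. The log2 fold change was 0.85 ± 0.15 (SE; 95% interval 0.52 to 1.18; edgeR adjusted p = 0.000656), higher in 3 of 3 groups.

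Slc11a2, which acts with the receptor in the endosome, had 70.0 to 76.6 CPM in number 4 and 68.0 to 82.1 CPM in numbers 1 to 3. Its log2 fold change was -0.04 (95% interval -0.16 to 0.07; edgeR adjusted p = 0.535). The exporter Slc40a1 had 0.645 to 1.02 CPM in number 4 and 0.516 to 1.27 CPM in numbers 1 to 3, with a wide interval, -0.57 to 0.57.

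The ferritin chains did not pass the test. Fth1, the ferroxidase chain, had 1287, 1255 and 1194 CPM in mimic 4, inhibitor 4 and control 4, against 1117 to 1264 CPM in numbers 1 to 3. Its log2 fold change was 0.08 (95% interval -0.02 to 0.19; edgeR adjusted p = 0.169). Ftl1, the chain that aids core formation, had 1578, 1486 and 1441 CPM in mimic 4, inhibitor 4 and control 4. The 9 other libraries ran from 1195 to 1531 CPM, with inhibitor 1 and control 2 above inhibitor 4 and control 4. The log2 fold change of Ftl1 was 0.16 (0.0078 to 0.32; edgeR adjusted p = 0.083). Without control 2 both chains were called, Fth1 with 0.10 and Ftl1 with 0.19, and without inhibitor 1 Ftl1 was called with 0.19. Both were called by limma on TPM as well. Its near-identical copy Ftl1-ps2 had 846 to 920 CPM in number 4 and 686 to 926 CPM in numbers 1 to 3, with a log2 fold change of 0.18 (edgeR adjusted p = 0.0888), so the pair summed to 2287 to 2499 CPM in number 4 and 1892 to 2458 CPM in numbers 1 to 3. The TPM ratio of Ftl1 to Fth1 was 2.11 to 2.18 in number 4, within the 1.91 to 2.26 of numbers 1 to 3.

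Of the regulators of these mRNAs, Aco1 (IRP1, which is the cytosolic aconitase when it holds an iron-sulfur cluster) rose slightly and evenly. It had 123, 119 and 114 CPM in mimic 4, inhibitor 4 and control 4. The 9 other libraries ran from 87.0 to 107 CPM, median 99.6 CPM, so the sets did not overlap. The log2 fold change was 0.25 ± 0.061 (SE; 95% interval 0.12 to 0.39; edgeR adjusted p = 0.0042), higher in 3 of 3 groups.

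Ireb2 (IRP2) had 102, 105 and 121 CPM in mimic 4, inhibitor 4 and control 4. Among the libraries numbered 1 to 3 it had 84.5, 104 and 71.2 CPM in mimic, 78.5, 86.9 and 70.6 CPM in inhibitor and 98.8, 53.0 and 77.9 CPM in control. Mimic 2 lay above mimic 4, so the sets overlapped. The log2 fold change was 0.44 ± 0.16 (SE; 95% interval 0.10 to 0.78; edgeR adjusted p = 0.0369). This call was lost in 9 of 19 alternative settings, with adjusted p values of 0.0173 to 0.242 over all settings. Among them were limma on TPM, no filter on low counts, and leaving out control 4 (0.32), inhibitor 3 (0.42), control 3 (0.43), inhibitor 1 (0.44), mimic 1 (0.44) or inhibitor 4 (0.45).

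Fbxl5, which marks IRP2 for degradation, had 55.0 to 63.0 CPM in number 4 and 49.0 to 61.1 CPM in numbers 1 to 3. Its log2 fold change of 0.10 did not pass the test (95% interval -0.05 to 0.25; edgeR adjusted p = 0.258).

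Hmox1, the inducible heme oxygenase and a known target of the transcription factor NRF2, had 149, 144 and 140 CPM in mimic 4, inhibitor 4 and control 4. Among the libraries numbered 1 to 3 it had 103, 100 and 104 CPM in mimic, 112, 94.2 and 98.8 CPM in inhibitor and 95.8, 115 and 106 CPM in control. All 3 number 4 libraries were above the highest of the 9 others, control 2. The ratio of number 4 to the mean of numbers 1 to 3 was 1.46 in mimic, 1.42 in inhibitor and 1.33 in control, and the log2 fold change was 0.48 ± 0.060 (SE; 95% interval 0.35 to 0.61; edgeR adjusted p = 2.97e-05).

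Hmox2, the constitutive form, had 63.6 to 66.7 CPM in number 4 and 62.4 to 69.2 CPM in numbers 1 to 3, with a log2 fold change of -0.03 (95% interval -0.13 to 0.08; edgeR adjusted p = 0.68). Cdip1, which overlaps it, was lower in number 4 by a log2 fold change of -0.28 (edgeR adjusted p = 0.000356). The TPM ratio of Hmox1 to Hmox2 was 5.77 to 5.99 in number 4 and 3.88 to 4.54 in numbers 1 to 3, with no overlap.

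A fit of number 4 by treatment, chosen after seeing the data, rests on 1 library per treatment group in number 4. It therefore cannot decide whether the number 4 difference itself varied with treatment. The difference of Tfrc, Hmox1 and Aco1 passed the test under all 19 alternatives, with log2 fold changes of 0.72 to 0.92, 0.45 to 0.52 and 0.23 to 0.27. In bulk RNA, fewer cells of a type and less RNA per cell cannot be told apart.

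**Figure D4:**
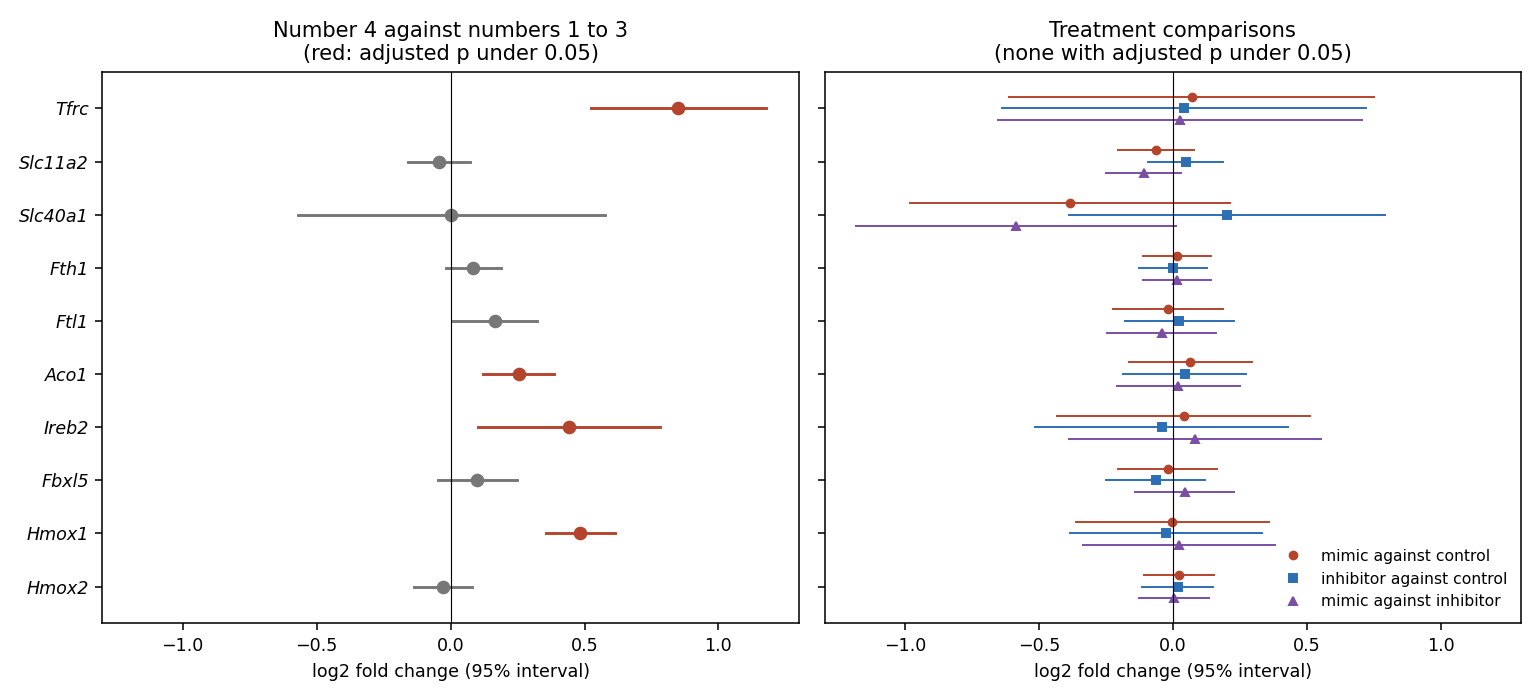
Log2 fold changes of the members with 95% intervals: number 4 against numbers 1 to 3 on the left (red where the adjusted p is under 0.05) and the treatment comparisons on the right. On the left the intervals of Tfrc, Aco1, Ireb2 and Hmox1 lie above 0 and are called, and on the right all 30 include 0.

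Tfrc and Hmox1 were both higher in number 4, yet their levels ran apart among the other libraries. Over the 12 libraries Pearson's r of log2 CPM between them was 0.69, and within the 9 libraries numbered 1 to 3 it was -0.52. Tfrc stayed close to Ireb2, with 0.90 over 12 libraries and 0.87 within the 9, while of the members Hmox1 was nearest to Aco1 over the 12, with 0.88 and 0.60 within the 9. With Ftl1 and Fth1 it had 0.80 each over 12 and 0.89 and 0.87 within the 9. All these points share libraries, so the values are a description.

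The search for like patterns covered 9203 tested genes averaging 10 CPM or more. The 3 most like Tfrc over the 12 libraries were Dnaja1 (r = 0.988), a cochaperone of the HSP70 system, Tmod3 (0.988), which caps actin filaments, and St13 (0.987), the HSP70-interacting protein. Their r within the 9 libraries numbered 1 to 3 was 0.958, 0.958 and 0.955. Dnaja1 had 116 to 126 CPM in number 4 and 67.3 to 98.2 CPM in numbers 1 to 3. The 3 most like Hmox1 were Tpi1 (r = 0.990), Aldoa (0.989) and Pgm1 (0.988), enzymes of glycolysis and glycogen metabolism, with 0.930, 0.915 and 0.917 within the 9. Tpi1 had 1393 to 1614 CPM in number 4 and 800 to 1036 CPM in numbers 1 to 3.

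Genes of the wider pathway moved in both directions in number 4. Of 102 genes in 9 lists, 96 were in the tables and 90 were tested: 17 (18.9%) were called higher and 20 (22.2%) lower, close to the 21.4% and 22.7% of all genes, with a median log2 fold change of -0.04. The counts of the lists below stand against that same background, and no difference from it was tested. No list had a called gene in a treatment comparison. The called genes named below had edgeR adjusted p values of 1.96e-07 to 0.0277. Of all 19 tested genes with an iron-responsive element core in a 5' UTR, members included, 3 were called higher and 2 lower, and of the 71 with a core in a 3' UTR 18 were called higher and 16 lower.

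Of 13 tested genes of iron uptake and membrane transport, 3 were called higher and 2 lower. Steap3, the endosomal ferrireductase that works beside the transferrin receptor, had 73.7 ± 1.55 CPM in number 4 (SD, n = 3) and 51.2 ± 3.88 CPM in numbers 1 to 3 (SD, n = 9), a log2 fold change of 0.53. Trf, transferrin itself, was higher by 1.09 at a low level, 0.915 ± 0.306 CPM in number 4 against 0.423 ± 0.0960 CPM in numbers 1 to 3, and was not called without mimic 4 (1.10) or inhibitor 4 (0.78). Slc25a28, a mitochondrial iron importer, was lower by a log2 fold change of -0.37, and Hfe, which binds the transferrin receptor, by -0.44, a call lost without inhibitor 4 (-0.35).

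Among 9 genes of iron chaperones, ferritin turnover and IRP2 degradation, 3 were called higher and 2 lower. Herc2, a ubiquitin ligase that acts on the ferritin receptor NCOA4, had 186 ± 10.4 CPM in number 4 and 139 ± 12.6 CPM in numbers 1 to 3, a log2 fold change of 0.42. Pcbp1, a chaperone that loads ferritin with iron, was higher by 0.21, but was not called without mimic 4 (0.16). Ncoa4, which carries ferritin to the autophagosome, had a log2 fold change of -0.17 and was not called without mimic 4 or inhibitor 4 (-0.15 each). Pcbp3, a relative of Pcbp1, had -0.17 and was not called without control 4 (-0.13).

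Alas2, the erythroid form of the first heme synthesis enzyme and another mRNA known to have an iron-responsive element, had 0 counts in all 3 libraries numbered 4, where 3 counts would be 0.0444 to 0.0496 CPM, and at most 13 in any library, so it was not tested. Epas1 was not analysed here.

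In heme synthesis 1 of 11 genes was called higher and 2 lower. Alas1, the housekeeping form of the rate-limiting enzyme, had 74.3 ± 3.13 CPM in number 4 and 50.7 ± 4.45 CPM in numbers 1 to 3, a log2 fold change of 0.55. The later enzymes Uros and Ppox were lower by log2 fold changes of -0.79 and -0.37. In heme transport and breakdown 1 of 7 was called, Blvrb, a biliverdin reductase, with a log2 fold change of 0.32. The other biliverdin reductase gene, Blvra, was not called, with -0.09 (edgeR adjusted p = 0.41).

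In both lists of iron-sulfur cluster genes more genes were called lower than higher, a difference that was not tested, and over all genes 22.7% were called lower. Of 19 mitochondrial assembly genes 1 was higher, the electron donor Fdx1 with a log2 fold change of 0.45, and 6 (31.6%) were lower, among them Abcb8 and Iba57 with -0.41 each and the scaffold Iscu with -0.24 (not called without control 4, -0.19). Of 9 cytosolic assembly genes 5 (55.6%) were lower and 0 higher. Ciao3 had 27.0 ± 1.23 CPM in number 4 and 40.4 ± 3.39 CPM in numbers 1 to 3, a log2 fold change of -0.58, and the scaffold genes Nubp1 and Nubp2 had -0.46 and -0.29, with the Nubp2 call lost without control 4 (-0.22). The reductase gene Ndor1 had -0.76, read from the more abundant of 2 rows with that symbol.

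Transcription factors of the heme oxygenase and ferritin genes were split, with 4 of 9 called higher and 3 lower. Maff, a small MAF partner of NRF2 and BACH1, had 59.2 ± 4.34 CPM in number 4 and 31.5 ± 2.21 CPM in numbers 1 to 3, a log2 fold change of 0.91. Nfe2l2, which encodes NRF2, was higher by 0.29, while Keap1, its inhibitor, had -0.27 and the small MAF gene Mafg -0.15. Neither was called without control 4 (-0.22 for Keap1 and -0.13 for Mafg), nor was Mafg without mimic 4 (-0.13). Bach1, which encodes BACH1, was also called higher, by 0.41, and Nfe2l1 was called lower, with -0.16. Of 12 NRF2 target genes outside iron handling 4 (33.3%) were called higher and 0 lower, and over all genes 21.4% were called higher and 22.7% lower. Srxn1, sulfiredoxin, had 57.3 ± 3.57 CPM in number 4 and 35.2 ± 1.20 CPM in numbers 1 to 3, a log2 fold change of 0.70, and Me1, G6pdx and Gsr had 0.64, 0.38 and 0.12. Gsr was not called without mimic 4 (0.12), inhibitor 4 (0.13) or control 4 (0.11). The 8 others of that list were not called. Nqo1 had 0.05, Gclm 0.07, Txnrd1 0.07 and Pgd 0.19, while Gclc had -0.04, Osgin1 -0.08, Taldo1 -0.10 and Slc7a11 -0.11. Activity of NRF2 was not tested.

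**Figure D5:**
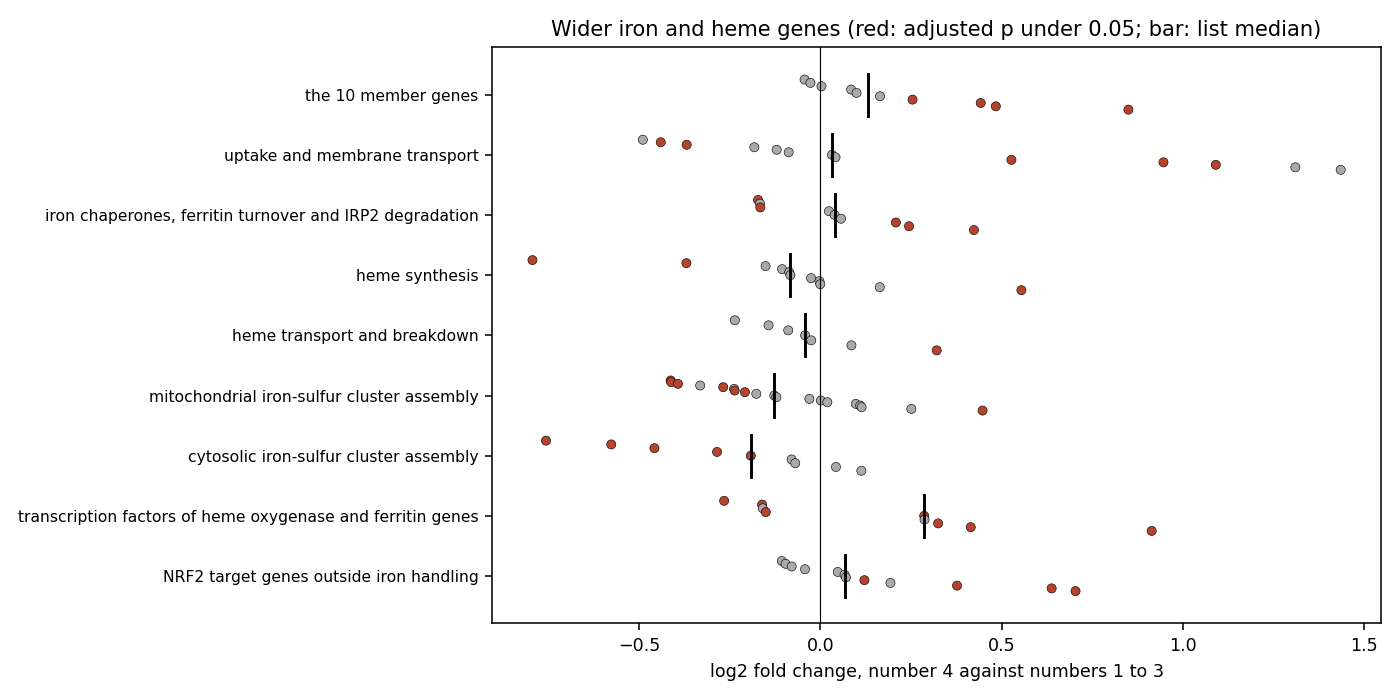
Log2 fold changes in number 4 against numbers 1 to 3 of the tested genes in the members and the 8 lists of at least 4 genes, with 1 point per gene, red where the adjusted p is under 0.05, and the list's median as a bar. Called genes lie on both sides of 0 in most lists, on the higher side alone among the 10 members, the NRF2 targets and, with 1 called gene, heme transport and breakdown, and on the lower side alone in cytosolic iron-sulfur assembly.

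Some marker genes were also called in number 4. Of 11 markers of sympathetic neuroblastoma, all in the tables, 10 averaged at least 1 CPM. Their sum was 1943 to 2080 CPM in number 4 and 2027 to 2305 CPM in numbers 1 to 3, with 1 of 10 tested genes called higher and 6 lower. The tables held 5 of 7 erythroid, 5 of 6 glial, 3 of 4 endothelial, 4 of 6 fibroblast and 4 of 7 macrophage and immune markers. Their sums in number 4 against numbers 1 to 3 were 7.80 to 10.1 against 5.60 to 7.41 CPM for erythroid genes (nearly all Epor), 15.2 to 17.1 against 11.5 to 15.02 CPM for glia (mostly Mbp) and 8.88 to 9.95 against 5.43 to 8.37 CPM for endothelium (mostly Pecam1). Fibroblast genes summed to 2.38 to 4.23 against 1.63 to 2.85 CPM, and macrophage and immune genes to 0 to 0.149 against 0.0762 to 0.437 CPM. Called higher were 1 of 1 tested erythroid, 1 of 3 glial, 1 of 2 endothelial, 1 of 3 fibroblast and 0 of 1 macrophage and immune genes. In each of these lists 0 were called lower. Over all genes 21.4% were called higher and 22.7% lower, and no difference from these shares was tested for any marker list. Ptprc was at 0 in 11 of 12 libraries, Cdh5 in 9 and Sox10 in 7. The part of these markers in the number 4 results was not tested.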

How the data were processed

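RNA was sequenced in 12 Neuro-2a libraries, grouped by the treatment in the labels. Both tables deposited by the authors cover 15767 genes, the first with raw read counts as whole numbers and the second with TPM. The tools named in the submitters' processing notes are edgeR, fastp, featureCounts, STAR and StringTie, and the build is GRCm39. Not given in the sources used here are their versions and roles, the annotation and the strand setting. TPM values as deposited sum to 1000000 per library and equal the count over 1 fixed length per gene, with departures of at most 0.0271% between libraries over 10287 genes, so both tables rest on the same counts. Symbols came from the table for 15499 genes and from a name table for 260.

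Counts were fitted with edgeR 4.0.16 in R 4.3.3 (TMM scaling, filterByExpr, quasi-likelihood test with robust dispersions, two-sided, Benjamini-Hochberg adjustment over 13014 genes), with group as the only term for the treatment comparisons and group plus number 4 for the other. CPM use the scaled library sizes. Intervals are 95% and rest on the spread between libraries, and counts near 0 carry counting error as well. The fits were tested on simulated data. For the treatment comparisons those data held no number 4 difference, so they do not show how it affects the group-only fit. Alternatives were upper-quartile scaling, DESeq2 1.42.0, no filter, limma 3.58.1 on log2(TPM + 1) and log2(TPM + 0.1), each library left out, the number as a block, numbers 1 to 3 alone, no treatment term and, added after seeing the data, numbers 1 to 3 as separate levels, number 4 by treatment and number 4 as a term in the treatment comparisons.

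The members, the comparison by number, the gene lists and the markers were chosen with earlier results of these data known. Besides the members, the text names from each list up to 4 called genes of smallest p in number 4 against numbers 1 to 3, those of a list under 4 genes, and the 3 genes most like Tfrc and Hmox1. Added after seeing the data were Blvra, Bach1, Nfe2l1 and the NRF2 target genes that were not called. A few listed genes are left out of the text and not reported here. The calls of the number 4 comparison use the title number, which the labels do not explain. Transcript sequence, untranslated regions, shared stretches and overlaps come from GENCODE M21 on GRCm38, which is not the authors' build, so no genome coordinates are given.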

Additional observations from a re-analysis of the deposited data

Results flagged for a closer look

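In 40 sets of libraries (each of the 10 members in the 3 treatment groups and in the 9 libraries numbered 1 to 3), 3 held a library that stood far from the rest of its set, where chance gives about 1 in 20. Hmox1 was 149 CPM in mimic 4, while the other mimic libraries lay between 100.5 and 103.6 CPM. Ftl1 was 1578 CPM in mimic 4, with the other mimic libraries between 1270 and 1322 CPM. Slc40a1 was 0.516 CPM in control 1, with the other control libraries between 0.973 and 1.04 CPM. The Hmox1 and Ftl1 values are both from mimic 4, 1 of the 3 libraries numbered 4, and the lowest Slc40a1 count of the 12 libraries was 34.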

How the results depend on the processing

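Tfrc, Hmox1 and Aco1 kept their direction and their call in number 4 under all 19 alternatives. The count of genes called in number 4 ran from 4078 to 6236 and that of members from 3 to 6. Fth1 was called in 3 settings and Ftl1 in 4. Ireb2 was not called without a filter (0.44), with limma on log2(TPM + 1) (0.43) or log2(TPM + 0.1) (0.44), or when 1 of 6 libraries was left out (0.32 to 0.54 over all leave-outs). Single leave-outs also ended the calls of Trf (0.78 to 1.36), Hfe, Pcbp1, Pcbp3, Ncoa4, Iscu, Nubp2, Keap1, Mafg and Gsr. The Slc40a1 value in number 4 was -0.0025 without a filter and -0.0017 with limma on log2(TPM + 1), and ran from -0.15 to 0.094 over leave-outs. The cause was not tested for any of these.

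DESeq2 called 3 genes in mimic against control, 1 in inhibitor against control and 6 in mimic against inhibitor, and leave-outs gave 0 to 1, 0 and 0 to 1, the 1 in each case without control 2. Of the 30 member results 19 changed sign under some alternative and 0 were called. In mimic against control Hmox1 was 0.0099 with upper-quartile scaling, 0.0036 with DESeq2 and 0.021 with limma at either pseudocount. Ftl1 was 0.010 with limma at either pseudocount, Fbxl5 was 0.013 with limma on log2(TPM + 1), 0.014 on log2(TPM + 0.1) and 0.042 in numbers 1 to 3 alone, and Fth1 was -0.017 there. In inhibitor against control Fth1 was 0.010 with upper-quartile scaling and 0.0077 with DESeq2, and Ireb2 was 0.0048 with limma on log2(TPM + 1), 0.0061 on log2(TPM + 0.1) and 0.039 in numbers 1 to 3 alone. In mimic against inhibitor Hmox2 was -0.017 in numbers 1 to 3 alone. The results that changed sign over leave-outs in mimic against control were Tfrc -0.15 to 0.43, Fth1 -0.017 to 0.048, Ftl1 -0.095 to 0.036, Aco1 -0.010 to 0.13, Ireb2 -0.14 to 0.24, Fbxl5 -0.089 to 0.026, Hmox1 -0.15 to 0.11. Those in inhibitor against control were Tfrc -0.17 to 0.40, Fth1 -0.028 to 0.031, Ftl1 -0.034 to 0.077, Aco1 -0.024 to 0.10, Ireb2 -0.22 to 0.15, Hmox1 -0.17 to 0.086, Hmox2 -0.0051 to 0.035. Those in mimic against inhibitor were Tfrc -0.19 to 0.24, Fth1 -0.016 to 0.044, Aco1 -0.054 to 0.089, Hmox1 -0.13 to 0.17, Hmox2 -0.012 to 0.033. 

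With the replicate number as a block, 0 genes and 0 members were called in each treatment comparison, and the 9 members other than Slc40a1 ran from -0.06 to 0.11, from -0.06 to 0.08 and from -0.11 to 0.09 in the same order of comparisons. Same-numbered libraries had correlations of their deviations from -0.07 to 0.53, with 7 of 12 pairs over 0.1. Pairs of different number ran from -0.32 to 0.25, with 8 of 36 over 0.1. Over 0.1 were 1 of 3 pairs for number 1, 1 of 3 for number 2, 2 of 3 for number 3 and 3 of 3 for number 4. Whether numbers 1 to 3 pair the libraries is thus not clear. The 3 libraries numbered 4 did deviate together, with 0.44 to 0.53. They are the 3 of 12 that correlated best with their own number in both other groups. Depth limits Slc40a1, with 34 to 78 counts, and Alas2.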
